A study of Mus musculus with 2 samples.

Results

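The small leucine-rich proteoglycans studied here were the 10 genes Dcn, Bgn, Lum, Fmod, Ogn, Prelp, Aspn, Omd, Kera, and Epyc, taken by symbol from the 32288 features counted in mouse periosteal cells. All 10 were found, each with 1 Ensembl identifier, and all 10 passed the filter on low counts. Periosteum was peeled from femurs and tibias of C57BL6 mice that were labelled WT and were 4 weeks old, and cells negative for CD45, CD31, and Ter119 were sorted by FACS. The 2 libraries, replicates 1 and 2 of a single untreated condition, came from 10x Chromium 3′ reagents, which tag each captured transcript with a unique molecular identifier (UMI). How many mice went into a library is not given in the sources used here, so p-values measure only the spread between these libraries, which may be technical. The question was which stromal cell type each proteoglycan marked and which proteoglycans were shared between types.

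Small leucine-rich proteoglycans are secreted matrix proteins whose core is a curved stack of leucine-rich repeats. Most carry chondroitin, dermatan, or keratan sulfate chains on that core. They bind fibrillar collagens and set how collagen fibrils grow and pack, and several also bind growth factors such as those of the TGF-β family. Decorin (Dcn), biglycan (Bgn), and asporin (Aspn) form the first subfamily, of which asporin generally lacks the sulfated chain. Lumican (Lum), fibromodulin (Fmod), keratocan (Kera), osteomodulin (Omd), and PRELP form the keratan sulfate subfamily, and epiphycan (Epyc) and osteoglycin (Ogn) a further one. In skeletal tissue, decorin and biglycan are known from bone and fibrous matrix, fibromodulin from tendon and cartilage, epiphycan from growth cartilage, and keratocan mainly from the cornea.

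The genes lie in a few groups in the genome. On GRCm38 (GENCODE M21), Dcn, Lum, Kera, and Epyc follow each other on the plus strand of chromosome 10, from 97479609 at the start of Dcn to 97682454 at the end of Epyc, with gaps of 46.98, 34.18, and 30.38 kb. Aspn, Omd, and Ogn follow each other on the plus strand of chromosome 13, from 49544443 to 49624501, with gaps of 14.9 and 15.22 kb, and all 3 lie inside Cenpp, which runs on the opposite strand. Prelp (minus strand) and Fmod (plus strand) lie 115.8 kb apart on chromosome 1, and Bgn lies alone on the X chromosome (73483602 to 73495933, plus strand). Prelp overlaps Gm15851 and Epyc overlaps Gm10754, again on the opposite strand. The paper reports Cell Ranger 6.1.2 with default parameters, in a sentence that names only the human genome, and does not spell out how strand was handled. Where counting used the strand, reads of the members and of these overlapping genes are separable. Only counting without regard to strand would mix them, and this was not tested.

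The 3 neighbours on chromosome 13 differed in where they were detected, as given below, and the bases upstream of their RefSeq starts (GRCm38.p6) are shown for that reason. Capitals mark matches on either strand to TATAAA (the TATA core), ACAAT (the SOX core), TGTGGT (the RUNX core), or CAGATG (an E-box bound by scleraxis). Of 32851 promoter windows of the same table, 12.4% held TATAAA, 27.7% ACAAT, 14.0% TGTGGT, and 14.4% CAGATG. In the Ogn sequence, matches to TATAAA on the plus and the minus strand overlap.
Aspn, chr13:49544193-49544442, plus strand: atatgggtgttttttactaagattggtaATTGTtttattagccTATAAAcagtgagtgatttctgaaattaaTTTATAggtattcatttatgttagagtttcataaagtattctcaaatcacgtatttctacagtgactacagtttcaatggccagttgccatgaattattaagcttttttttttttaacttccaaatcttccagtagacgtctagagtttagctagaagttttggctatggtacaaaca
Omd, chr13:49582212-49582461, plus strand: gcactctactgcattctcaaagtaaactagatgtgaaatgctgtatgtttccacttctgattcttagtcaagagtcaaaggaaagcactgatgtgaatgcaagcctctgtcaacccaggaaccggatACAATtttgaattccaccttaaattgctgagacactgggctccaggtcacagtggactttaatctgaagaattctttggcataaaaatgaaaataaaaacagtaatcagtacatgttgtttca
Ogn, chr13:49607765-49608014, plus strand: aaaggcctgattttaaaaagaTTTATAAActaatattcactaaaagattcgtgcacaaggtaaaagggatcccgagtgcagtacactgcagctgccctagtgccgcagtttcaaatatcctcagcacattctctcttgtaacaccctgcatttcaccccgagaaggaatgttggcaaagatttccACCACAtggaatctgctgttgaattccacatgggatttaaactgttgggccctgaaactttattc

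The Aspn and Ogn windows held the letters of the TATA core and the Omd window did not. These matches lay 173 to 207 bases before the end of the Aspn window and 222 to 229 bases before the end of the Ogn window. The Aspn and Omd windows held the SOX core and the Ogn window did not, and of the 3 only the Ogn window held the RUNX core. G and C made up 30.0% of the Aspn window, 38.4% of the Omd window, and 42% of the Ogn window, against a median of 52.4% over all promoters. A match describes letters and not a bound site.

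Of 9932 and 3659 deposited barcodes in libraries 1 and 2, 6276 and 2893 had at least 500 genes, at least 500 UMIs, and at most 10% mitochondrial UMIs, with a median of 8164 and 6279 UMIs. The sort removes CD45+ cells, yet 7597 of the kept cells fell into clusters removed as hematopoietic, which left 448 stromal cells in library 1 and 1124 in library 2. Of the removed cells, 1505 in library 1 and 247 in library 2 took no name of a blood cell type. Both libraries carry the label WT, but the EGFP reporter was at 0 UMIs in library 1 and had 6837 UMIs in kept cells of library 2, 6833 of them in stromal cells. The tdTomato reporter had UMIs in both, 1482 in kept cells of library 1 and 4627 in kept cells of library 2. It was seen in 23.7% and 41.7% of their stromal cells. The cells with EGFP UMIs were 63.3% of Tcim+, 52.7% of Col10a1+, 25.2% of chondrocyte-like, 20.2% of osteoblast-like, and 4.27% of P-SSC-like cells of library 2, so the libraries differ in more than replicate number. Values of the tested classes are given for each library, and some values of other groups and of clusters for library 2 alone, as stated there. The libraries shared 8 barcodes.

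Stromal cells were clustered without the 10 proteoglycans among the variable genes, so that the clusters were not built on them. The 4 skeletal classes that held at least 10 cells in each library were tested. P-SSC-like cells, named for the skeletal stem cells of the periosteum, numbered 19 in library 1 and 281 in library 2. Their Pi16+ cluster carried 14 of 14 markers, among them Ly6a, Cd34, Clec3b, and Pi16, and their Mfap4+ cluster 11 of 14. Osteoblast-like cells (88 and 168) expressed Bglap, Bglap2, and Ifitm5, and their Ifitm5+ and Gal+ clusters carried 7 and 8 of 9 markers. Chondrocyte-like cells (27 and 119) carried 12 of 12 markers, among them Col2a1 and Acan. The Lepr+ stromal-like class (83 and 38 cells) carried 9 of 9 markers such as Cxcl12, Lpl, and Kitl. It was not the same in both libraries: 63 of 83 cells in library 1 came from an Adipoq+ part and 28 of 38 in library 2 from an Mmp9+ part, and the summed level of its markers was 24690.1 counts per 1000000 UMIs of a sum (CPM) in library 1 and 4070.5 in library 2. The 75 blood markers include those of osteoclasts, Mmp9 among them. They summed to 19515 and 8522 CPM in this class, against 18083 and 18091 CPM in B cell-like cells. In the 3 other classes they summed to between 294 and 4419 CPM. The part of the blood markers in the values of the Lepr+ stromal-like class was not tested. Mmp9, which osteoclasts also express, made up 1408 of the 19515 CPM in library 1 and 7755 of the 8522 CPM in library 2. Of the other osteoclast markers, Ocstamp, Oscar, and Atp6v0d2 were at 0 in both libraries, and the level of Acp5 is not given here. Whether osteoclasts contributed to this class was not tested.

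Other groups were too small in a library to be tested or carried no name, and their levels are given as a description. Those described below were tenocyte-like cells (2 and 112), smooth muscle-like cells (4 and 20), an unnamed Msmp+ cluster seen in library 2 alone (77 cells, with the lubricin gene Prg4 at 53686 CPM), and the unnamed Col10a1+ (69 and 74 cells) and Tcim+ (17 and 49 cells) clusters. The S100a9+ (38 and 45 cells), Top2a+ (20 and 49 cells), and blood-carrying (11 and 29 cells) clusters are not described further. Skeletal muscle-like cells (70 and 63) entered the low-count filter, the normalization, and the estimate of the spread, but not the means and pairs compared in the main fit. No cluster met the rule for osteogenic progenitor-like cells.

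The proteoglycans were almost absent from blood cells. Of the 156704 UMIs of the 10 genes in kept cells, 155606 (99.3%) were in stromal cells. Dcn gave 74791 UMIs, Bgn 32408, Lum 19250, Fmod 10848, Prelp 6563, Aspn 4503, Epyc 2669, Ogn 2498, Omd 2182, and Kera 992. The kit counts transcript ends, so these levels were not divided by gene length, and capture may still differ between genes. In B cell-like cells, which should lack these genes, Dcn was at 0.858 CPM in library 1 and 12.6 in library 2, and no proteoglycan exceeded 1.10% of cells once each cell was thinned to 1000 UMIs.

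**Figure D1:**
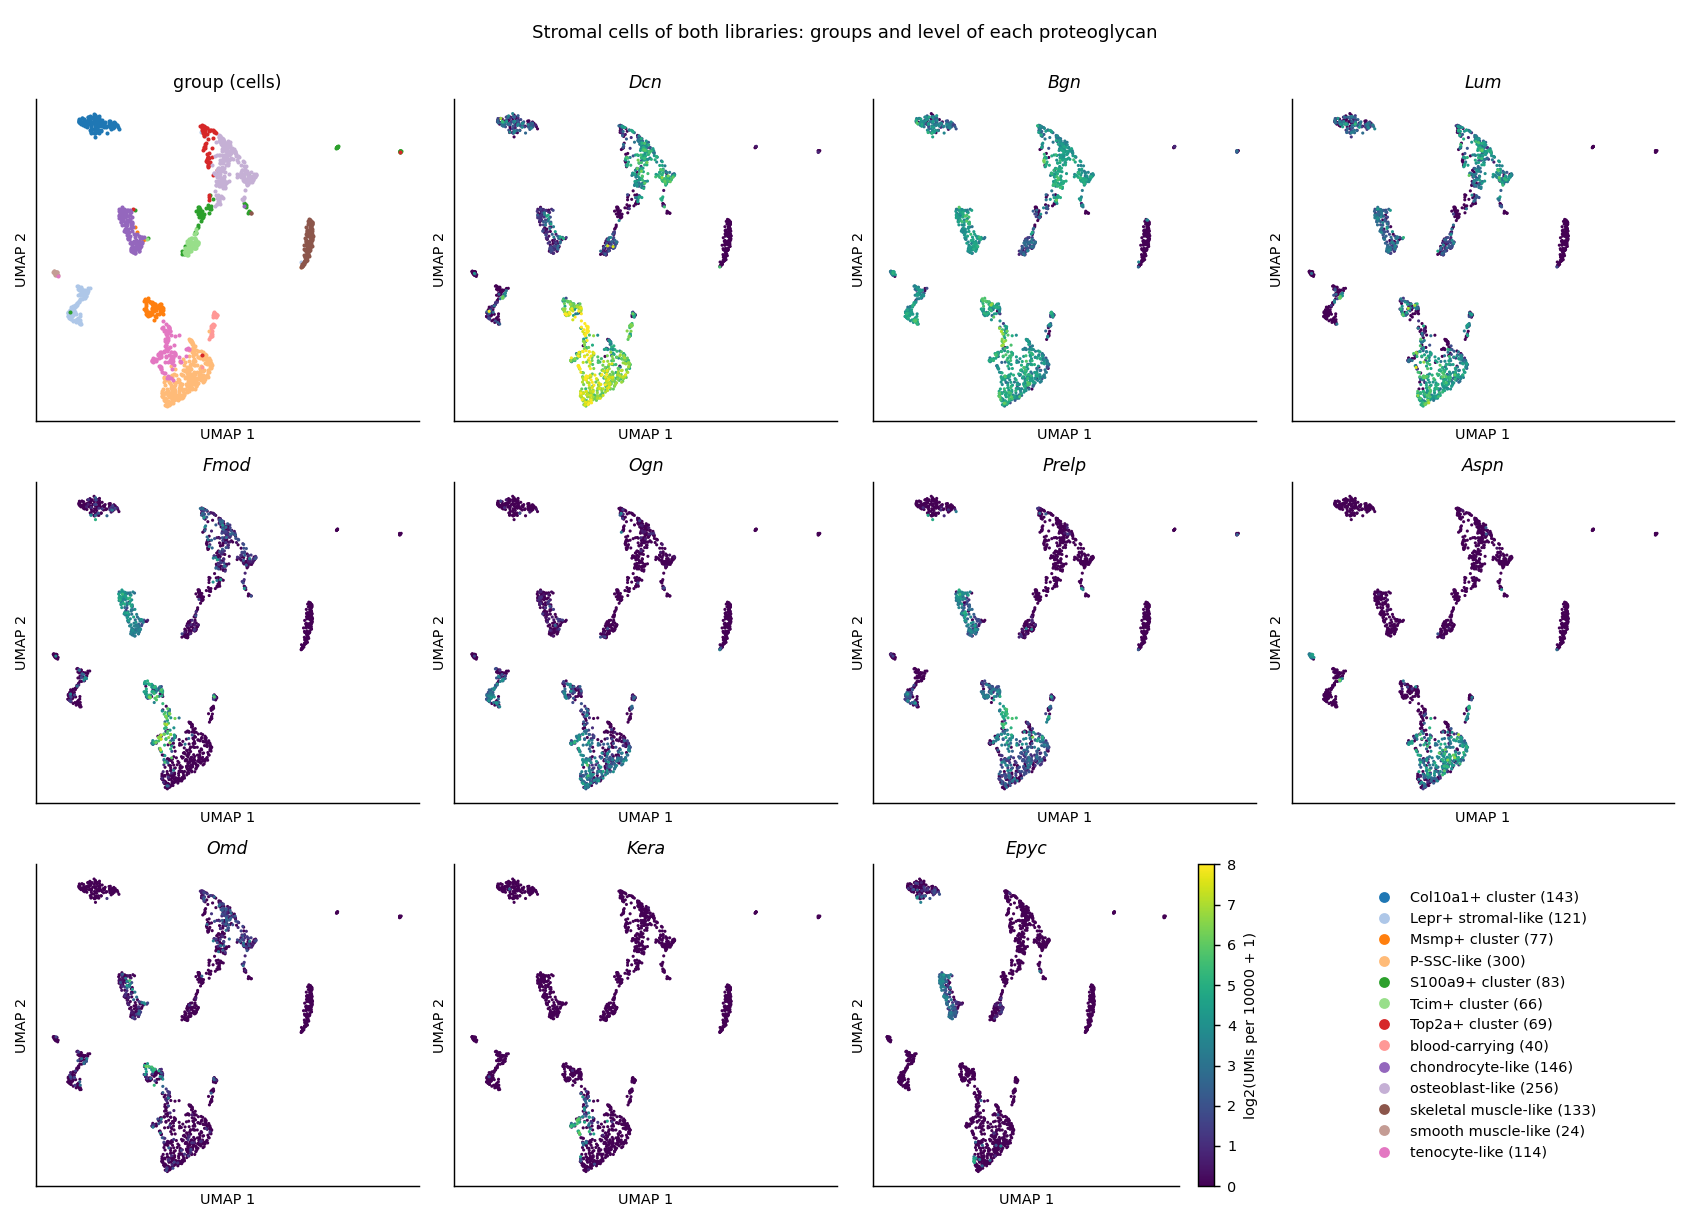
UMAP of the 1572 stromal cells of both libraries, with 1 point per cell. The first panel colours the cells by group, with the number of cells in brackets, and the other panels colour them by each proteoglycan on a log2 scale of UMIs scaled to a fixed depth. Bgn is spread over most groups, with skeletal muscle-like cells the darkest, Epyc is seen mainly in chondrocyte-like cells, and Kera mainly in tenocyte-like cells.

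Dcn, the most abundant of the 10, had its highest level among the tested classes in P-SSC-like cells. P-SSC-like cells held 6789 CPM of it in library 1 and 9919 CPM in library 2. Osteoblast-like cells held 3050.3 and 2008 CPM. Chondrocyte-like cells held 118 and 198 CPM. In both libraries every P-SSC-like value stood above every osteoblast-like value, and those above the chondrocyte-like values. Against the mean of the 3 other skeletal classes, Dcn was higher in P-SSC-like cells by 2.93 on the log2 scale (SE 0.83, adjusted p = 0.0357, edgeR quasi-likelihood test) and lower in chondrocyte-like cells (log2 fold change -4.10, SE 1.2, adjusted p = 0.0317). The P-SSC-like call was lost with DESeq2 and at clustering resolutions 0.4 and 1.2, and the chondrocyte-like call at both of these resolutions and with skeletal muscle-like cells in the mean, with values of up to -0.35. Tested by edgeR as pairs, P-SSC-like cells did not differ in Dcn from osteoblast-like cells (1.22, SE 1.14, adjusted p = 0.527). Nor did they differ from Lepr+ stromal-like cells (2.3, SE 1.18, adjusted p = 0.324). The Lepr+ stromal-like level of Dcn was 79.0 CPM in library 1 and 3913 CPM in library 2, but a single cell held 71.5% of the UMIs in library 2.

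At a fixed depth of 1000 UMIs per cell, 95% and 96.1% of P-SSC-like cells in libraries 1 and 2 had a Dcn UMI, 81.4% and 66.2% of osteoblast-like cells, and 12.1% and 16.2% of chondrocyte-like cells. Without thinning, the shares were 100% and 98.6%, 97.7% and 91.1%, and 92.6% and 70.6%, where the chondrocyte-like cells were deeper, with medians of 34081 and 30324 UMIs per cell against 12361 and 9243 in P-SSC-like cells. The highest Dcn level was in tenocyte-like cells of library 2, at 21158 CPM, against 4052 CPM in the 2 such cells of library 1, and the Msmp+ cluster was at 10307 CPM.

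Bgn was shared by the 4 tested classes. P-SSC-like cells held 1414 and 1901 CPM, osteoblast-like cells 2014 and 1595, chondrocyte-like cells 1830.2 and 1633, and Lepr+ stromal-like cells 1661 and 1129.6. The ranges of the 4 classes overlapped, no class passed the test in either direction, and none of the 6 pairs of classes differed for Bgn. The log2 fold change from the mean of the other classes lay between -0.89 in Lepr+ stromal-like cells (SE 0.46, adjusted p = 0.223) and 0.64 in osteoblast-like cells (SE 0.42, adjusted p = 0.412), which does not show that the classes were equal. Skeletal muscle-like cells stood apart with 0 and 11.4 CPM. The unnamed Tcim+ cluster held 434 and 268 CPM, and in the fit with the unnamed clusters added Bgn was lower there than in each of the 4 classes and the Col10a1+ cluster, by between 1.88 (SE 0.54, adjusted p = 0.0254, from Lepr+ stromal-like cells) and 2.97 (SE 0.56, adjusted p = 0.00142, from osteoblast-like cells) on the log2 scale. Bgn was not alone in this. Of the 9 proteoglycans in that fit, P-SSC-like cells had 7 called higher than in Tcim+ cells and 0 lower. Lepr+ stromal-like cells had 7 and 1, osteoblast-like cells 5 and 1, chondrocyte-like cells 6 and 0, and Col10a1+ cells 3 and 0. Over all 9782 genes of that fit, 1143 were called higher and 963 lower in P-SSC-like than in Tcim+ cells. For Lepr+ stromal-like cells these counts were 777 and 629, and for osteoblast-like cells 910 and 994. For chondrocyte-like cells they were 920 and 770, and for Col10a1+ cells 1007 and 1239. EGFP was seen in 63.3% of Tcim+ cells of library 2, and its part in these differences was not tested. When skeletal muscle-like cells were put into the mean, Bgn was called higher in P-SSC-like cells (log2 fold change 1.68, adjusted p = 0.0141), so its direction there depends on which cells it is compared with.

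Lum, a regulator of collagen fibril spacing, was likewise not called in any tested class, or in any pair of these classes, in the main fit. It was at 1186 and 2040.3 CPM in P-SSC-like cells and at 1069 and 1517 CPM in osteoblast-like cells, and lower values were seen in chondrocyte-like cells (415 and 501 CPM). The log2 fold change from the mean of the other classes was 0.93 in P-SSC-like cells (SE 0.78, adjusted p = 0.496) and -0.93 in chondrocyte-like cells (SE 0.86, adjusted p = 0.487). Lepr+ stromal-like cells held 42.8 CPM in library 1 and 1273 CPM in library 2, the widest gap between libraries of any class tested for Lum. At 1000 UMIs per cell, Lum was seen in 48.8% and 72.3% of P-SSC-like, 57.0% and 54.2% of osteoblast-like, and 32.1% and 34.8% of chondrocyte-like cells.

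**Figure D2:**
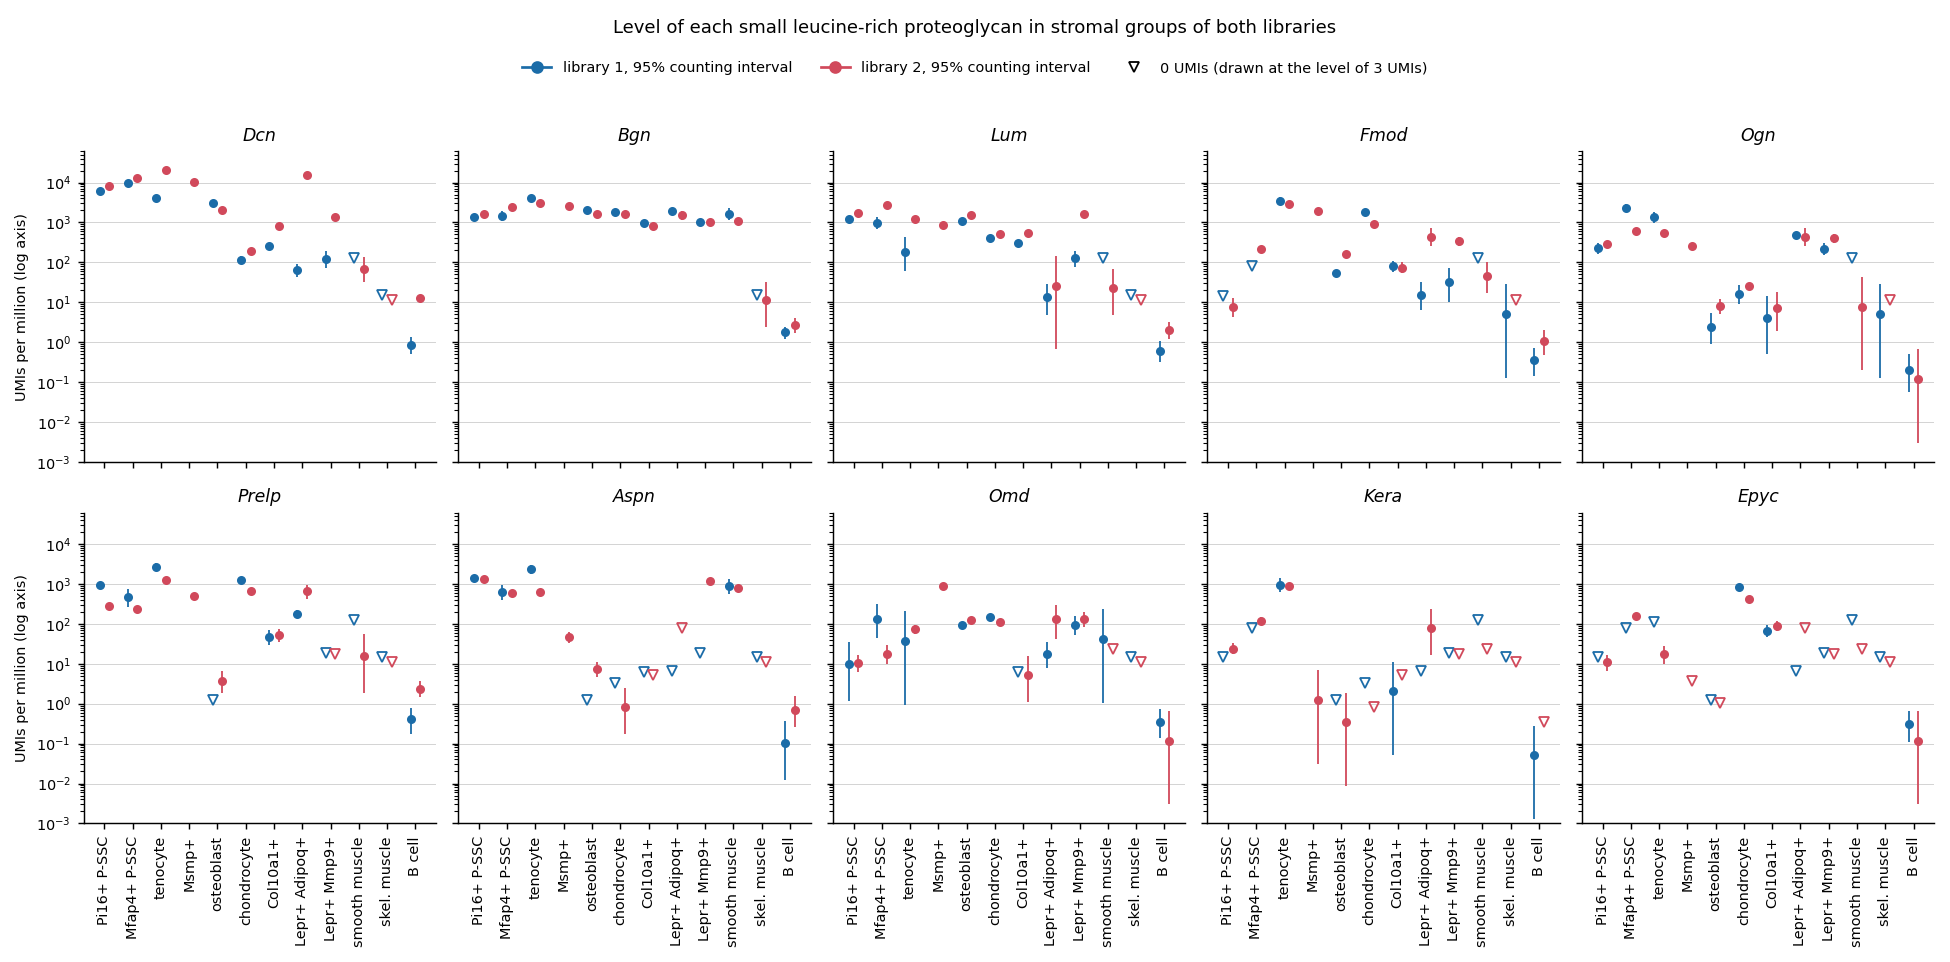
Level of each proteoglycan in CPM (log axis) in each stromal group and in B cell-like cells. Points are the sums of library 1 (blue) and library 2 (red), bars the exact 95% Poisson interval for counting error only, and open triangles groups with 0 UMIs, drawn at the level that 3 UMIs would give. Bgn stays between 1129.6 and 2014 CPM in the 4 tested classes but is at 0 and 11.4 CPM in skeletal muscle-like cells, Epyc stands highest in chondrocyte-like cells at 851 and 425 CPM, and Prelp drops to 0 and 3.72 CPM in osteoblast-like cells.

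Aspn, which competes with decorin for collagen, was a gene of P-SSC-like cells that was also seen in tenocyte-like and smooth muscle-like cells. P-SSC-like cells held 1279.5 CPM in library 1 and 1094 CPM in library 2. Osteoblast-like cells held 0 and 7.44 CPM, and chondrocyte-like cells 0 and 0.834 CPM, the latter 3 UMIs. Aspn was higher in P-SSC-like cells than in the mean of the other classes (log2 fold change 6.48, SE 1.21, adjusted p = 0.00283) and lower in chondrocyte-like cells (log2 fold change -7.12, SE 2.12, adjusted p = 0.0301). These fitted sizes rest on sums at or near 0 and depend on the prior count. Without library 2 they became 12.68 and -4.23, and with DESeq2 both calls were lost. The chondrocyte-like call was also lost at resolution 0.4 and with skeletal muscle-like cells in the mean. At 1000 UMIs per cell, Aspn was seen in 54.7% and 46.2% of P-SSC-like cells and in 57.1% and 51.6% of the 4 and 20 smooth muscle-like cells, whose levels were 884 and 786 CPM. Tenocyte-like cells of library 2 held 615 CPM, with a UMI in 28.4% of cells, close to the 604 CPM of the Mfap4+ P-SSC-like cluster, and the 2 tenocyte-like cells of library 1 held 2321 CPM, of which 1 cell held 96.8%.

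The Aspn call in Lepr+ stromal-like cells (log2 fold change 4.40, SE 1.22, adjusted p = 0.0329) rested on 1 cell. The class had no Aspn UMI in library 1 and 196 UMIs (934 CPM) in library 2, of which a single cell held 77%. With the top cell left out of each sum the adjusted p was 0.143, with the library as a block it was 0.109, and without library 2 the log2 fold change was -4.23.

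Ogn, a bone and connective tissue matrix protein also called mimecan, was highest among the tested classes in P-SSC-like and Lepr+ stromal-like cells and was also seen in tenocyte-like and Msmp+ cells. It was at 538 and 390.0 CPM in P-SSC-like cells and at 408 and 400.4 CPM in Lepr+ stromal-like cells. Chondrocyte-like cells held 16.5 and 25.3 CPM and osteoblast-like cells 2.43 and 8.12 CPM, so the values of these 4 classes separated into a high and a low pair in both libraries. Ogn was higher in P-SSC-like cells (log2 fold change 3.39, SE 0.39, adjusted p = 6.35e-05) and in Lepr+ stromal-like cells (2.86, SE 0.40, adjusted p = 3.50e-04) than in the mean of the other classes. It was lower in osteoblast-like cells (-4.40, SE 0.58, adjusted p = 3.14e-04) and in chondrocyte-like cells (-1.85, SE 0.49, adjusted p = 0.0157), where the call was lost under 5 of 14 alternatives, with an adjusted p of up to 0.506. P-SSC-like and Lepr+ stromal-like cells differed by 0.40 (SE 0.52, adjusted p = 0.736). A single cell held 62.9% of the Ogn UMIs of P-SSC-like cells in library 1, and with the top cell of each sum left out the P-SSC-like call stood at 3.08 (adjusted p = 5.83e-04). In the Adipoq+ part, the marrow-type cells of the Lepr+ class, Ogn was seen in 38.1% of cells in library 1 and 25.0% in library 2 at 1000 UMIs, against 14.0% and 17.7% in the Mmp9+ part. Untested, tenocyte-like cells held 1363 CPM in library 1, 94.6% of it in 1 of 2 cells, and 544 CPM in library 2, with a UMI in 35.1% of cells, and the Msmp+ cluster held 258 CPM.

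Epyc, Prelp, and Fmod had their highest level among the tested classes in chondrocyte-like cells, and the bases upstream of their RefSeq starts are shown with the same motifs in capitals.
Epyc, chr10:97643818-97644067, plus strand: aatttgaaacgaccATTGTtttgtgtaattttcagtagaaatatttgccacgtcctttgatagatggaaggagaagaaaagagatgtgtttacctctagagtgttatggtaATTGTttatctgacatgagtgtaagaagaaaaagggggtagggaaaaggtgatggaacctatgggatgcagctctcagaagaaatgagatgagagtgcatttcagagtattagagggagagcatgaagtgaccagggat
Prelp, chr1:133921415-133921651, minus strand: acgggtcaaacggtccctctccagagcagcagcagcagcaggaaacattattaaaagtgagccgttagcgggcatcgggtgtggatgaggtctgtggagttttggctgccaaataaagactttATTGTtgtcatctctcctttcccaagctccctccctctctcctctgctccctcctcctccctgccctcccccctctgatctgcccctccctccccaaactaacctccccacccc
Fmod, chr1:134037004-134037253, plus strand: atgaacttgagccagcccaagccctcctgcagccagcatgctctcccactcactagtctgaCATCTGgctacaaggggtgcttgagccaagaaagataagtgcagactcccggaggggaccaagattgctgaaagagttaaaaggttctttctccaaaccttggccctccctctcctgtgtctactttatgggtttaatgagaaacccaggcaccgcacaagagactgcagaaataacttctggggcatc

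The Epyc and Prelp windows held the SOX core, which 27.7% of all promoters also held, and the Fmod window held the scleraxis E-box and no SOX core. Among the 8 members with a promoter entry, Aspn, Omd, and Kera also held the SOX core, and only Fmod held the scleraxis E-box. Kera, described below, thus held the SOX core and not the scleraxis E-box. RefSeq lists 2 starts for Epyc, of which 1 is shown.

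Epyc, the cartilage member of the family, marked chondrocyte-like cells. They held 774 Epyc UMIs in library 1 and 1528 in library 2, which is 851 and 425 CPM. Osteoblast-like and Lepr+ stromal-like cells held none in either library. Against the level that 3 UMIs would give in each library, Epyc was at least 419-fold higher in chondrocyte-like than in osteoblast-like cells and at least 29.7-fold higher than in Lepr+ stromal-like cells, where fewer UMIs were sequenced. Set against the mean of the other classes, the fitted log2 fold change was 10.09 (SE 0.97, adjusted p = 1.93e-04), and DESeq2 gave an adjusted p of 0.0556. P-SSC-like cells held no Epyc UMI in library 1 and 58.7 CPM in library 2, and the difference between chondrocyte-like and P-SSC-like cells was called (log2 fold change of P-SSC-like over chondrocyte-like cells -4.48, SE 0.99, adjusted p = 0.0121). At 1000 UMIs per cell, Epyc was seen in 56.6% and 29.4% of chondrocyte-like cells.

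Prelp, which anchors collagen to basement membranes, was high in chondrocyte-like, P-SSC-like, and tenocyte-like cells and close to 0 in osteoblast-like cells. Chondrocyte-like cells held 1267 and 669 CPM and P-SSC-like cells 848 and 269.6 CPM. No Prelp UMI was found in the 88 osteoblast-like cells of library 1, where 3 counts would have been 1.22 CPM, and 11 UMIs (3.72 CPM) were found in library 2. Prelp was higher in chondrocyte-like cells (log2 fold change 4.6, SE 0.54, adjusted p = 2.10e-04) and in P-SSC-like cells (2.79, SE 0.54, adjusted p = 0.00490) and lower in osteoblast-like cells (-7.15, SE 0.92, adjusted p = 7.69e-04) than in the mean of the others. Both positive classes did not differ from each other beyond their spread (log2 fold change of P-SSC-like over chondrocyte-like cells -1.36, SE 0.70, adjusted p = 0.194). Without library 2, the P-SSC-like value was 4.58 and the osteoblast-like value -11.53. The osteoblast-like call was lost at resolution 0.4 (-4.67, adjusted p = 0.0922), without integration (-1.20, adjusted p = 0.997), and with skeletal muscle-like cells in the mean (-4.19, adjusted p = 1.0). Tenocyte-like cells held 2689 and 1248 CPM, the former from 2 cells, and the Msmp+ cluster 503 CPM. Lepr+ stromal-like cells held 132 and 119 CPM, all of it in the Adipoq+ part, and 1 cell held 96.0% of the UMIs in library 2.

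Fmod, which guides collagen fibril assembly in tendon and cartilage, was shared by chondrocyte-like, tenocyte-like, and Msmp+ cells. Chondrocyte-like cells held 1792 and 936 CPM, tenocyte-like cells 3537 and 2938 CPM, and the Msmp+ cluster 1946 CPM. The other tested classes lay below them, osteoblast-like cells at 53.5 and 161 CPM, P-SSC-like cells at 0 and 73.7, and Lepr+ stromal-like cells at 19.8 and 353. Fmod was higher in chondrocyte-like cells than in the mean of the other tested classes (log2 fold change 4.16, SE 0.81, adjusted p = 0.00253). The value without library 2 was 8.60. With the library as a block, Fmod was also called lower in P-SSC-like cells (log2 fold change -3.34, adjusted p = 0.0378). At 1000 UMIs per cell, Fmod was seen in 82.2% and 57.8% of chondrocyte-like cells, in 65.4% of Msmp+ cells, and in 57.7% of tenocyte-like cells of library 2.

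Omd, the bone member known for its binding to mineral and cells, was a low gene seen in chondrocyte-like and osteoblast-like cells and in the Lepr+ stromal-like class. It was at 96.0 and 125 CPM in osteoblast-like cells and at 151 and 112 CPM in chondrocyte-like cells, and a single cell held 69.3% of the chondrocyte-like UMIs in library 1. Lepr+ stromal-like cells held 37.9 and 129 CPM and differed neither from osteoblast-like (adjusted p = 0.162) nor from chondrocyte-like cells (adjusted p = 0.0809) past the threshold. P-SSC-like cells held 28.5 and 12.7 CPM. Omd was lower in P-SSC-like cells than in the mean of the others (log2 fold change -2.80, SE 0.54, adjusted p = 0.00477) and higher in chondrocyte-like cells (1.64, SE 0.40, adjusted p = 0.0142) and in osteoblast-like cells (1.42, SE 0.40, adjusted p = 0.0432). The P-SSC-like call was lost at resolution 0.4 and with skeletal muscle-like cells in the mean, with values of up to -0.28. The osteoblast-like call was lost under 8 of 14 alternatives. The chondrocyte-like call was lost at resolution 0.4 and with the top cell of each sum left out, where the edgeR adjusted p was 0.0829. The highest Omd level of any stromal group was in the Msmp+ cluster of library 2, at 911 CPM, with a UMI in 28.7% of its cells at 1000 UMIs, against 9.29% of osteoblast-like and 9.69% of chondrocyte-like cells of that library.

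Kera was a tenocyte-like gene in these cells. Tenocyte-like cells held 876 CPM in library 2 (814 UMIs), and the 2 tenocyte-like cells of library 1 held 26 UMIs, all in 1 cell. None of the 4 tested classes had a Kera UMI in library 1. In library 2, P-SSC-like cells held 145 UMIs (54.2 CPM), of which 1 cell held 35.2%, Lepr+ stromal-like cells 3, osteoblast-like cells 1, and chondrocyte-like cells 0. The test against the mean of the others called Kera higher in P-SSC-like cells (log2 fold change 6.07, SE 1.09, adjusted p = 0.00201), but without library 2 the value was 0.00, and with the top cell left out Kera failed the filter and was not tested. The 6 tenocyte markers summed to 465 and 527 CPM in P-SSC-like cells, against 6078 and 7359 in tenocyte-like cells, with Tnmd and Scx at 0 in library 1 and at 105 and 8.97 CPM in library 2. Their part in the Kera level of P-SSC-like cells was not tested. With the library as a block, Kera was also called lower in chondrocyte-like cells (log2 fold change -5.79, adjusted p = 0.0269), where it had no UMI.

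**Figure D3:**
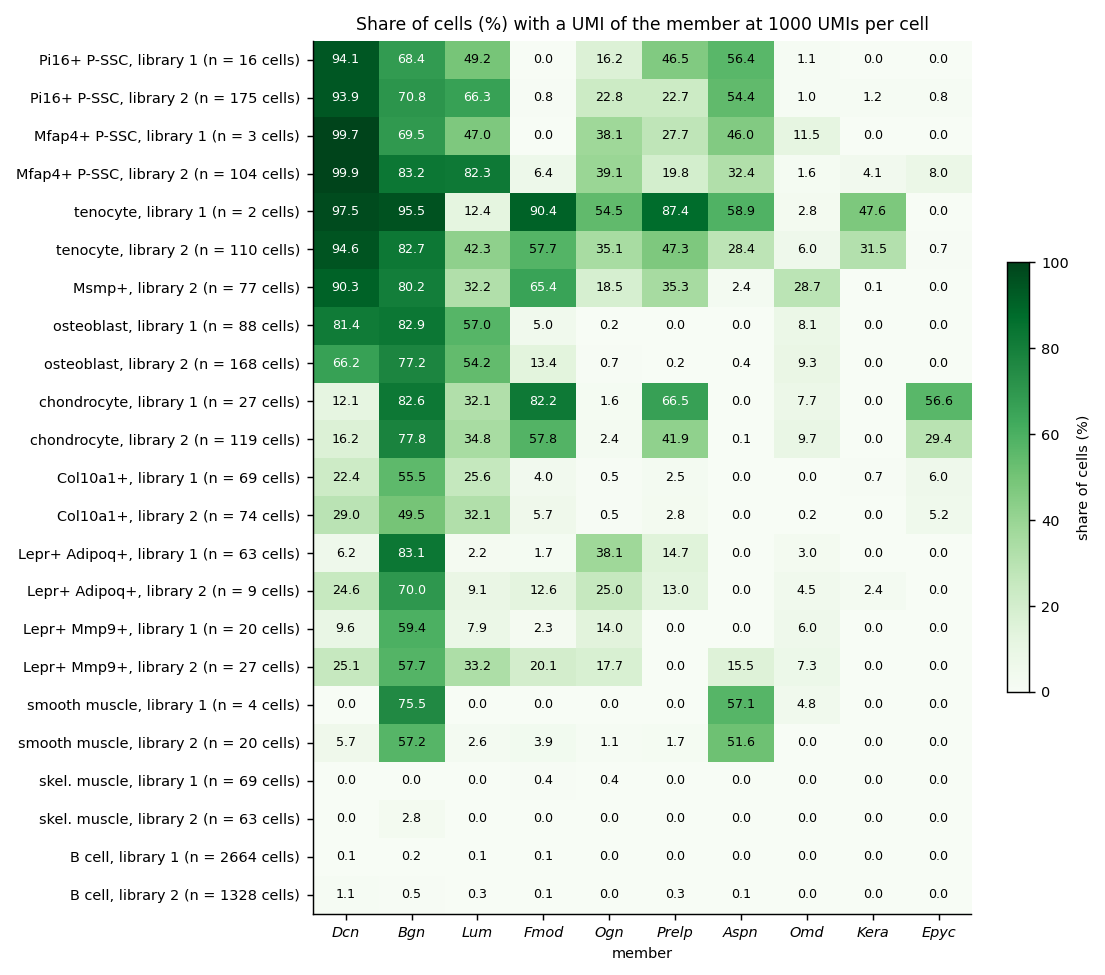
Share of cells in percent with at least 1 UMI of each proteoglycan when each cell is thinned to 1000 UMIs, for each group and library (rows, with the number of cells of at least 1000 UMIs) and proteoglycan (columns). Dcn covers 94.1% and 93.9% of Pi16+ P-SSC-like cells, and the B cell-like rows at the bottom, the background, do not exceed 1.10%.

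At an adjusted p under 0.05, P-SSC-like cells had 5 of the 10 proteoglycans higher and 1 lower, chondrocyte-like cells 4 and 3, osteoblast-like cells 1 and 2, and Lepr+ stromal-like cells 2 and 0. Over all 9473 genes tested, the shares called higher and lower were 11.5% and 4.80% for P-SSC-like cells, 12.3% and 11.0% for chondrocyte-like cells, 6.85% and 5.35% for osteoblast-like cells, and 9.75% and 4.41% for Lepr+ stromal-like cells. Of the 40 tests, 18 were called, 12 as higher and 6 as lower. Dcn, Fmod, Kera, and Epyc were called higher in 1 class each, and Ogn, Prelp, Aspn, and Omd in 2, while Bgn and Lum were called in none. The median log2 fold change of the 10 was 2.86 in P-SSC-like cells, -0.25 in Lepr+ stromal-like cells, -1.67 in osteoblast-like cells, and -0.23 in chondrocyte-like cells, where the median over all genes lay between -0.02 and 0.03. With genes at 0 UMIs put at their bound, the medians were 2.16, 0.32, -2.51, and -0.26. Of the 18 calls, 5 held under every alternative tested, namely Ogn in P-SSC-like, Lepr+ stromal-like, and osteoblast-like cells and Fmod and Prelp in chondrocyte-like cells. The Fmod call held narrowly, with an adjusted p of up to 0.0499 over its edgeR and DESeq2 alternatives. Ogn in Lepr+ stromal-like cells could be tested under 11 alternatives and the 4 others under 14.

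**Figure D4:**
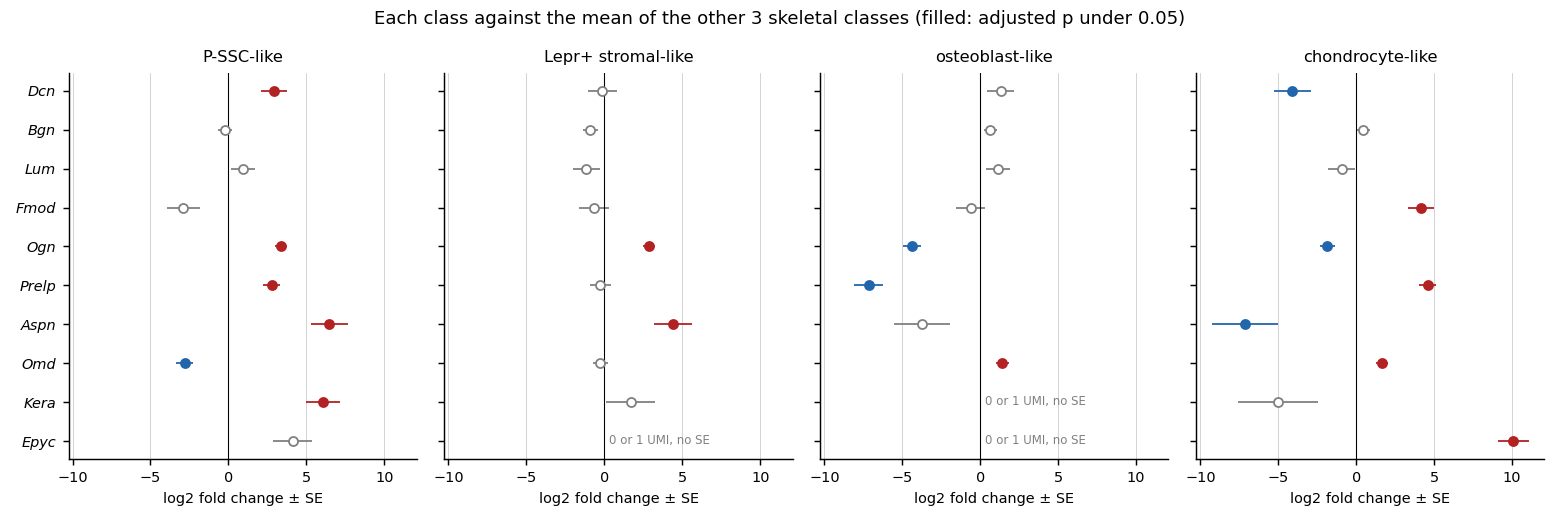
Log2 fold change of each proteoglycan in each tested class against the mean of the 3 other classes (x axis, bars are the SE from edgeR), 1 panel per class. Filled points passed an adjusted p of 0.05, red higher and blue lower, open points did not, and genes whose SE could not be estimated in a class with 0 or 1 UMI are marked in words. The chondrocyte-like points run from Epyc at 10.09 to Aspn at -7.12, Prelp is at -7.15 in osteoblast-like cells, and Bgn lies within 0.89 of 0 in all 4 panels.

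The pairs of classes show which neighbours in the order of levels differed. P-SSC-like and Lepr+ stromal-like cells differed in none of the 10 (8.65% of all genes differed), with Aspn at 1.56 (SE 1.47, adjusted p = 0.630) and Prelp at 2.28 (SE 0.74, adjusted p = 0.0997) by edgeR. At an unadjusted p under 0.05, 4 of the 10 differed in that pair (Epyc, Kera, Omd, and Prelp), and DESeq2 called 1 of them, Prelp. The edgeR fit with the unnamed clusters added called Epyc there (7.94, SE 2.16, adjusted p = 0.0398), with 365 of 9782 genes higher and 339 lower. The fit without the low-count filter called 2 of the 10, with 569 of 18871 genes higher and 484 lower. P-SSC-like and osteoblast-like cells differed in 6 (19.3% of all genes): Aspn, Epyc, Kera, Ogn, and Prelp were higher and Omd lower in P-SSC-like cells. P-SSC-like and chondrocyte-like cells differed in 7 (24.6% of all genes), with Aspn, Dcn, Kera, and Ogn higher and Epyc, Fmod, and Omd lower in P-SSC-like cells. P-SSC-like cells held no Epyc or Kera UMI in library 1, so every difference above with either gene higher in P-SSC-like cells rests on library 2 alone. Lepr+ stromal-like cells differed from osteoblast-like cells in 3 (13.6% of all genes; Aspn, Ogn, and Prelp higher, with Aspn lost under the library block, adjusted p = 0.0530, and with the top cell left out, adjusted p = 0.0620) and from chondrocyte-like cells in 5 (24.9%; Aspn and Ogn higher, Epyc, Fmod, and Prelp lower). Osteoblast-like and chondrocyte-like cells differed in 3 (12.3%; Epyc, Ogn, and Prelp lower in osteoblast-like cells). With the top cell of each sum left out, the P-SSC-like level of Dcn was called above the Lepr+ stromal-like level (adjusted p = 0.0401), and Ogn no longer differed between osteoblast-like and chondrocyte-like cells past the threshold (adjusted p = 0.0676). For Dcn, Bgn, Lum, Omd, and Kera, no class differed from its next neighbour in the order.

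Within the named classes, the members also varied between clusters, as values without a test. The Mfap4+ cluster of P-SSC-like cells, with 3 cells in library 1 and 106 in library 2, held 1.57 and 1.60 times the Dcn level of the Pi16+ cluster in libraries 1 and 2, and 0.44 and 0.46 times its Aspn level. Fmod, Epyc, and Kera had no UMI in either cluster in library 1. In library 2, Fmod was at 216 CPM in the Mfap4+ cluster and 7.66 CPM in the Pi16+ cluster, Epyc at 162 and 10.9, and Kera at 119 and 24.1. The tenocyte-like markers summed to 835 CPM in the Mfap4+ cluster and 385 CPM in the Pi16+ cluster of that library, and the 75 blood markers to 10981 and 1210.0 CPM. The Ifitm5+ and Gal+ clusters of osteoblast-like cells were close to each other for Bgn (1892 and 2200.3 CPM in library 1, 1679.7 and 1445 in library 2) and for Dcn in library 1 (2966 and 3180.3), and further apart for Dcn in library 2 (1746 and 2475). Neither osteoblast-like cluster held an Epyc UMI.

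Chondrocyte-like cells differed from the Col10a1+ cluster, whose leading gene is the collagen of hypertrophic cartilage, in a fit with the unnamed clusters added, in which 15.2% of 9782 genes differed. Fmod was higher in chondrocyte-like cells by 3.42 (SE 1.12, adjusted p = 0.0461), Prelp by 3.57 (SE 0.90, adjusted p = 0.0160), and Omd by 4.89 (SE 0.98, adjusted p = 0.00364) on the log2 scale. Epyc was at 67.1 and 88.2 CPM in the Col10a1+ cluster, and its difference did not pass (2.34, SE 0.96, adjusted p = 0.117). Bgn, at 958 and 813 CPM in that cluster, differed by 0.22 (SE 0.52, adjusted p = 0.814). Kera did not enter that fit. EGFP was among the leading genes of the Col10a1+ cluster and was seen in library 2 alone, and its part in these differences was not tested.

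The make-up of the proteoglycan pool varied between groups, given as values without a test. Of the UMIs of the 10 genes, Dcn made up 56.2% and 62.7% in P-SSC-like cells. Dcn also made up most of the pool in tenocyte-like cells of library 2 and in the Msmp+ cluster. In osteoblast-like cells Dcn made up 48.5% and 37.0%, followed by Bgn (32.0% and 29.4%) and Lum (17% and 28.0%). In chondrocyte-like cells, Bgn (28.4% and 36.3%), Fmod (27.8% and 20.8%), Prelp (19.7% and 14.9%), and Epyc (13.2% and 9.44%) made up most of the pool and Dcn only 1.83% and 4.40%. In smooth muscle-like cells, Bgn (63.9% and 53.3%) and Aspn (34.4% and 38.7%) made up nearly all of it. P-SSC-like cells held 12082 and 15813 CPM of the 10 genes together, osteoblast-like cells 6285 and 5426, chondrocyte-like cells 6439.7 and 4500.3, tenocyte-like cells 19304 and 31690.0, and skeletal muscle-like cells 10.0 and 11.4. Lepr+ stromal-like cells held 2381 CPM in library 1 and 8265 CPM in library 2, where most Dcn UMIs came from 1 cell. The Msmp+ cluster of library 2 held 17374 CPM.

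**Figure D5:**
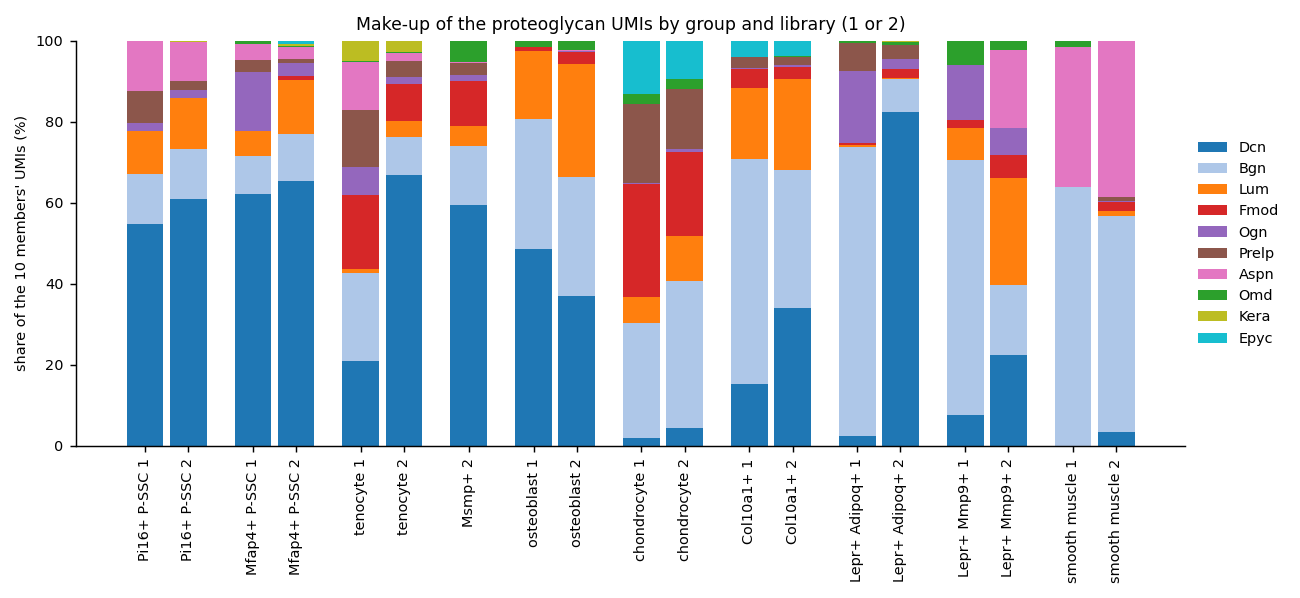
Stacked bars of the share of each proteoglycan in the summed UMIs of all 10 (y axis, percent, from 0 to 100), for each group and library (1 or 2). Dcn fills most of the P-SSC-like and Msmp+ bars, Epyc appears mainly in the chondrocyte-like and Col10a1+ bars, and the Adipoq+ bars of the libraries differ because 587 of 597 Dcn UMIs in library 2 came from 1 cell.

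A single cell often expressed several members. At 1000 UMIs per cell, a P-SSC-like cell was expected to show 3.33 and 3.50 of the 10 genes in libraries 1 and 2, a chondrocyte-like cell 3.41 and 2.70, an osteoblast-like cell 2.35 and 2.22, a Lepr+ stromal-like cell 1.37 and 1.70, and a tenocyte-like cell of library 2 4.26. In chondrocyte-like cells, the pair Prelp/Epyc was expected together in 40.0% and 15% of cells, where the product of their single shares was 37.7% and 12.3%. In P-SSC-like cells, the pair Prelp/Aspn met in 31.2% and 11.6% of cells against a product of 23.8% and 9.99%. In tenocyte-like cells of library 2, the pair Fmod/Kera met in 25.1% of cells against 18.2%, and Fmod/Aspn in 13.5% against 16.4%. These shares describe cells of the same library and were not tested.

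The genes that build, modify, and bind the sugar chains were read from lists written by function. The counts below stand beside the shares of all genes called higher and lower, which were 11.5% and 4.80% for P-SSC-like, 9.75% and 4.41% for Lepr+ stromal-like, 6.85% and 5.35% for osteoblast-like, and 12.3% and 11.0% for chondrocyte-like cells. Of 22 genes for chondroitin and dermatan sulfate synthesis, 20 were tested, and chondrocyte-like cells had 8 higher and 2 lower, P-SSC-like cells 3 and 4, osteoblast-like cells 4 and 4, and Lepr+ stromal-like cells 2 and 2. Csgalnact1, which starts the chondroitin chain, was at 119 and 81.4 CPM in chondrocyte-like cells and higher there by 5.94 on the log2 scale (SE 0.51, adjusted p = 3.41e-05). It was also called higher in P-SSC-like cells (2.63, SE 0.6, adjusted p = 0.0126). Xylt1, which adds the first sugar to the core protein, was at 216 and 115 CPM in chondrocyte-like cells (4.72, SE 0.43, adjusted p = 3.74e-05), and the chondroitin sulfotransferase gene Chst11 at 554 and 289 CPM (4.80, SE 0.37, adjusted p = 1.43e-05). The sulfotransferase gene Chst13 was seen only in osteoblast-like cells among the tested classes, at 55.9 and 62.2 CPM. Csgalnact1 had no UMI in osteoblast-like cells of either library.

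Of 7 genes for sulfate and sugar precursors, 5 were higher and none lower in chondrocyte-like cells, where 12.3% of all genes were higher and 11.0% lower, with a median log2 fold change of 1.82. Papss2, which makes the sulfate donor, was at 535 and 329.9 CPM there (5.01, SE 0.41, adjusted p = 2.25e-05), and the sulfate transporter gene Slc26a2 at 304 and 157 CPM (3.53, SE 0.34, adjusted p = 6.56e-05). Slc35d1, a sugar nucleotide transporter gene, stood at 4.05 (SE 0.46, adjusted p = 5.40e-05). In P-SSC-like cells 1 of these 7 was higher and 3 were lower. Ugdh, which makes glucuronic acid donors, was the higher one, with 558 and 179.8 CPM (1.42, SE 0.41, adjusted p = 0.0295). Ugdh was also higher in chondrocyte-like cells (1.47, SE 0.4, adjusted p = 0.0183) and lower in Lepr+ stromal-like cells (-2.77, SE 0.54, adjusted p = 0.00393). In Lepr+ stromal-like cells 0 were higher and 2 lower, and in osteoblast-like cells 0 were called by edgeR or DESeq2, with 0 at an unadjusted p under 0.05.

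Of 6 keratan sulfate synthesis genes, 2 were tested. Chst2, a sulfotransferase gene of that pathway, was higher in P-SSC-like (2.20, SE 0.38, adjusted p = 0.00234) and Lepr+ stromal-like cells (1.87, SE 0.39, adjusted p = 0.00989) and lower in chondrocyte-like cells (-2.88, SE 0.50, adjusted p = 0.00219).

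Of 8 other leucine-rich proteoglycan genes, 5 were tested. P-SSC-like cells had 2 higher and 1 lower (11.5% and 4.80% of all genes) and Lepr+ stromal-like cells 1 and 1 (9.75% and 4.41%). Osteoblast-like cells had 0 higher and 2 lower (6.85% and 5.35%) and chondrocyte-like cells 2 and 1 (12.3% and 11.0%). Podn (podocan) was at 89.7 and 108 CPM in P-SSC-like cells (6.63, SE 0.60, adjusted p = 5.67e-05), and its relative Podnl1 at 222 and 324 CPM in Lepr+ stromal-like cells (6.18, SE 0.61, adjusted p = 1.21e-04) and at 0 and 0.374 CPM in P-SSC-like cells. Chad (chondroadherin) was at 794 and 1117 CPM in chondrocyte-like cells (5.85, SE 0.91, adjusted p = 5.44e-04), and Chadl at 474 and 446 CPM (6.04, SE 0.35, adjusted p = 1.31e-07).

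Of 9 genes for proteases and receptors of these proteoglycans, 5 were tested. P-SSC-like cells had 3 higher and 0 lower (11.5% and 4.80% of all genes) and Lepr+ stromal-like cells 2 and 0 (9.75% and 4.41%). Osteoblast-like cells had 1 higher and 1 lower (6.85% and 5.35%) and chondrocyte-like cells 0 and 3 (12.3% and 11.0%). Lrp1, an endocytic receptor of decorin, was at 619 and 793 CPM in P-SSC-like cells (1.73, SE 0.29, adjusted p = 0.00179). Egfr, to which decorin binds, was at 122 and 70.7 CPM in P-SSC-like cells (3.66, SE 0.51, adjusted p = 4.75e-04) and at 87.3 and 181 CPM in Lepr+ stromal-like cells (4.05, SE 0.52, adjusted p = 4.05e-04). Tlr4, a receptor of soluble biglycan, was higher in both of these classes (2.60, SE 0.56, adjusted p = 0.00797, and 3.08, SE 0.58, adjusted p = 0.00474). Bmp1, a protease that removes the biglycan propeptide, was at 659.9 and 558 CPM in osteoblast-like cells (2.05, SE 0.29, adjusted p = 0.00139).

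Over the 10 sums of the model, which are the 4 classes and skeletal muscle-like cells in each library, the levels of the members followed a few other genes closely, given as Pearson correlations of log2(CPM + 10) without a test. Points of 1 library share its depth, and the points of 1 class share its cells. The members were near 0 in both skeletal muscle-like sums, and correlations without these sums were not computed. Among the members, Dcn and Lum had the highest correlation (0.938), followed by Bgn and Lum (0.855), and Aspn and Epyc the lowest (-0.160). Outside the list, Dcn was most like Mmp2 (0.978), Col5a1 (0.954), and Carhsp1 (0.952). Ogn was most like Igsf10 (0.988), Msx1 (0.982), and Ifi211 (0.981), and Aspn like 2900041M22Rik (0.984), Sdk1 (0.983), and Thy1 (0.977), of which Thy1 is a marker used to name P-SSC-like cells.

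Bgn was most like Ppic, Sec62, and Sec11a (0.987 each) and Lum like Ttc7 (0.967), Eif2ak3 (0.964), and Cercam (0.956). Fmod followed Slc7a5 (0.942), Dctd (0.931), and Nt5e (0.926), and Prelp followed Spats2l (0.976), Tgfb2 (0.967), and Angptl2 (0.967). Epyc followed Lbhd2 (0.979), Ak4 (0.978), and Prr5 (0.971), and Omd followed Bfsp1 (0.987), P3h1 (0.973), and Cpe (0.965). Kera, which was at 0 in 7 of the 10 sums, followed Ifi202b (0.945), Lst1 (0.899), and Ccl2 (0.880).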

How the data were processed

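Both libraries were sequenced from sorted periosteal cells, and per the labels the authors processed them with Cell Ranger 6.1.2 against mm10. The deposited values were raw UMI counts per gene and barcode for 32288 features. The gene annotation behind the counts is not given in the sources used here. Coordinates were those of GENCODE M21 on GRCm38, matched by Ensembl identifier, and upstream sequences were those of RefSeq on GRCm38.p6, where 8 of the 10 genes had an entry.

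Barcodes with at least 500 genes, 500 UMIs, and at most 10% mitochondrial UMIs were kept, with total UMIs of 100808649 and 33306452 over all barcodes. No doublet caller was run, and sums without cells holding a Ptprc UMI were an alternative. Libraries were integrated in Seurat 5.3.0 (R 4.3.3; 3000 variable genes, 30 dimensions, 15 principal components, resolution 0.8), hematopoietic clusters were removed, and the rest were clustered again, with the 62 genes of the gene lists left out of the variable genes. A cluster was removed as hematopoietic unless a stromal marker list was found to a larger part than any blood list and to a set minimum. A cluster could be named where at least 3 markers of a list had a log2 fold of at least 1 (10 CPM added) in at least 20% of its cells. It took the list found to the largest part. It stayed unnamed where another list had more genes among its 10 leading genes, as in the Col10a1+ cluster, which carried 4 chondrocyte-like markers. This naming rule was set after clusters had been seen, and names rebuilt here may differ from those of the study.

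UMIs were summed per class and library and tested with edgeR 4.0.16 (quasi-likelihood, TMM, filterByExpr) over 9473 genes, p-values being adjusted by Benjamini-Hochberg and called under 0.05. The same code was tested on simulated data. DESeq2 1.42.0, other normalization, filters, clusterings, and a library block were alternatives. CPM was the UMIs of a gene scaled to 1000000 UMIs of a sum. Intervals (95%, exact Poisson) and the floor of 3 counts cover counting error only. Shares of cells were expected shares after thinning to 1000 UMIs, over cells with at least as many. All 10 proteoglycans were named, and from each other list up to 4 called genes with the largest log2 fold change. The members and lists were chosen with earlier results of these data known. The sums of a library share cells and depth, and the numbers pair the sums because they mark the same library: deviations from the class means correlated between classes of 1 library with a median of 0.164 (0.081 to 0.427 over 10 pairs).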

Additional observations from a re-analysis of the deposited data

Results flagged for a closer look

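Proteoglycan UMIs were also found outside the stromal cells. In library 1, Dcn was at 3.94 CPM in 1319 erythroid-like cells, against 0.858 CPM in B cell-like cells, and 62 of its 85 UMIs were in 1 cell. Lum was at 2.92 CPM in the same cells, with 40 of 63 UMIs in 1 cell. In library 2, Dcn was at 88.0 CPM in 49 neutrophil-like cells, against 12.6 CPM in B cell-like cells, with 142 of 149 UMIs in 1 cell. Aspn was at 13.2 CPM in the 137 erythroid-like cells of library 2, with all 25 UMIs in 1 cell. These values stood out because they exceeded the B cell-like level of the same library.

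The barcodes that failed the filters held the 10 genes as well. Their summed level was 89.0 CPM in 3656 barcodes of library 1 (779 UMIs), against 4.99 CPM in B cell-like cells, and 410.1 CPM in 766 barcodes of library 2 (1050 UMIs), against 21.8 CPM.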

How the results depend on the processing

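At resolution 0.4, the genes called went from 1541 to 789 in P-SSC-like, 1342 to 854 in Lepr+ stromal-like, 1156 to 411 in osteoblast-like, and 2207 to 1220 in chondrocyte-like cells, and the proteoglycans called from 6 to 3, 2 to 1, 3 to 1, and 7 to 3. The pairs of classes gave 9 in place of 24 calls. DESeq2 called 3 proteoglycans in P-SSC-like and 1 in Lepr+ stromal-like cells and 14 in the pairs. With skeletal muscle-like cells in the mean, 2193 genes were called in Lepr+ stromal-like cells and 5 proteoglycans in osteoblast-like cells, and Bgn in P-SSC-like cells changed from -0.21 to 1.68. Leaving out Lepr+ stromal-like cells, an alternative chosen after seeing the data, gave 2628 genes in P-SSC-like cells. The cause of these changes was not tested.

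With the library as a replicate block, 1 proteoglycan was called in Lepr+ stromal-like cells (Aspn was lost), Fmod in P-SSC-like and Kera in chondrocyte-like cells were gained, and no other call of a proteoglycan against the mean of the other classes changed. In the pairs, Aspn between Lepr+ stromal-like and osteoblast-like cells was lost, and Kera between Lepr+ stromal-like and chondrocyte-like cells and Dcn and Fmod between osteoblast-like and chondrocyte-like cells were gained, while the genes lower in Lepr+ stromal-like cells went from 418 to 651. Leaving out the top cell of each proteoglycan, also chosen after seeing the data, left 1 call in Lepr+ stromal-like cells. With 1 library left out, no test was possible, and the log2 fold change of Aspn in Lepr+ stromal-like cells lay between -4.23 and 4.99. Another size factor (RLE) put the median of all genes at 0.17 in Lepr+ stromal-like and -0.14 in chondrocyte-like cells, where it had been 0.03 and 0.00. Osteogenic progenitor-like cells formed a class only without integration and with a mitochondrial limit of 5%, where in turn no Lepr+ stromal-like class could be tested. The 19 P-SSC-like and 27 chondrocyte-like cells of library 1 limit what their values can show.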
